A study of Mus musculus with 5 samples.

Results

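Expression with a fusion construct was compared with expression with its non-fusion counterpart where both carried the same substitution, K118R, which names a change of lysine to arginine. The library labelled S_PXT1_K118R was set against the library labelled WT_K118R, 2 of the 5 libraries of the study. The other 3, labelled PMSCV (the name of a vector), WT and S_PXT1, are used below to place each difference. All 5 groups were Ba/F3 cells, a mouse line, infected with a lentivirus carrying the construct named in the label, and each group held 1 library. The labels do not spell out S or WT, do not say which protein carries K118R, and give no time after infection and no interleukin-3 condition. Nor do they say whether a library came from 1 culture or from several. Of the 50867 genes in the deposited table, 1547 had a mean of 20 counts or more over the 5 libraries and were compared. Of these, 1492 had 5 counts or more in both K118R libraries.

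Ba/F3 cells are early B lineage cells that need interleukin-3 to survive and divide, so a signalling oncogene placed in them can be tested for whether it replaces that need. Interleukin-3 works through JAK2 and STAT5, which raise survival genes such as BCL2L1. A chromosomal rearrangement can join parts of separate genes into a fusion gene and thereby change the untranslated parts of an mRNA, which set its stability, as well as its protein. In protein kinases, replacing the lysine that contacts ATP with arginine is a common way to remove the catalytic activity, which is why such a substitution often serves as a control.

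Each difference below compares 1 library with 1 other, with no replicate check, so no test was run and there are no p-values. Counts were scaled with TMM factors (trimmed mean of M values) and expressed as CPM, the counts scaled to a common library size. Genes were called at a 2-fold difference in CPM with 1 CPM added to each value. That addition understates the differences of low genes with counts in both libraries. It is less than 1 count, so log2 ratios are large where 1 library had 0 counts, and even 1 count against 0 is called. Folds are ratios of scaled counts without that addition, and the interval after each is the exact 95% interval of a ratio of 2 counts. It covers counting error only, and reads are not independent molecules. Where the lower library had 0 counts, the fold was taken against 3 counts, the number that a count of 0 allows, and is written as "at least". Such a fold leaves out the counting error of the other library, so the lower end of the exact interval is smaller.

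The labels could be checked only in part. No read was counted on PXT1 in any of the 5 libraries (0 counts, a floor of 3 counts per library), so the constructs were not seen through it. STK38L, an NDR kinase, had 3 counts with WT_K118R and 0 with S_PXT1_K118R, and 4, 7 and 0 with PMSCV, WT and S_PXT1. The 14 markers fixed for the B lineage summed to between 0 and 27 counts per library, 8 in WT_K118R and 0 in S_PXT1_K118R, and CD79A, CD79B and VPREB1 were at 0 throughout. Among 12 markers of cells that depend on interleukin-3, GATA2 and SPI1 entered the comparison, CSF2RB had at most 1 count in any library and IL3RA had 0. The table names human genes although the cells are mouse cells. How far that bears on these zeros, and on every count and fold below, was not tested.

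The libraries fell into 2 sets by how many genes they held. WT_K118R had 347661 counts and at least 1 count for 11504 genes, whereas S_PXT1_K118R had 250409 counts and 7044 genes. Reduced to the total of S_PXT1_K118R, WT_K118R would be expected to hold 10455.6 genes. PMSCV and WT were near WT_K118R, with 11492 and 11712 genes, and S_PXT1, with 7393, was near S_PXT1_K118R. The fuller libraries also held genes of other tissues: 124 genes from 9 lists of squamous epithelium, keratins, cornified envelope, collagens, smooth muscle, prostate, plasma cell and endothelium took 0.958% of all counts with PMSCV, 1.06% with WT and 0.681% with WT_K118R. They took 0.206% with S_PXT1 and 0.221% with S_PXT1_K118R. Every library is labelled Ba/F3, and where the counts on genes of other tissues came from was not tested. Bulk libraries cannot tell a change in which cells were present from a change in RNA per cell. The part that detection and tissue genes have in the differences below was not tested, except where values without them are given.

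More genes were lower than higher with S_PXT1_K118R, and most genes differed little. Of the 1547 genes, 43 were at least 2-fold higher (2.78% of the genes compared) and 121 at least 2-fold lower (7.82%), together 10.6%. The interval excluded 1 for all 43 of the higher genes and for 113 of the lower ones, 10.1% of the genes. The median log2 ratio was 0.04 and the middle 50% of genes lay between -0.22 and 0.24. Among the 1492 genes with 5 counts or more in both, 40 were higher (2.68%) and 71 lower (4.76%), together 7.44%, so the excess of lower genes was smaller there. The interval excluded 1 for all 40 of the higher genes and 70 of the lower ones, 7.37% of the genes. The median log2 ratio of those genes was 0.05.

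The remaining 55 genes had under 5 counts in one or both K118R libraries. Of them 50 were lower and 3 higher with S_PXT1_K118R, and they account for 50 of the 121 lower calls. S_PXT1_K118R alone was under 5 counts for 46 of these genes, WT_K118R alone for 3 and both for 6. Of the 46, 26 were also under 5 counts in S_PXT1 and 20 were not. A gene this low in 1 of the pair could pass the mean of 20 only through the other libraries, so that such genes were called at all follows from the filter, and their number is not read as support. Without the 22 tissue genes that entered, of which 15 were lower and 0 higher, 43 genes were higher and 106 lower.

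Well-covered genes differed less often. Of 505 genes with a mean of 100 counts or more, 9 were higher and 16 lower (4.95% together), and 480 lay within 2-fold. The genes with the most counts were among those that differed little. YBX1, an RNA-binding protein of translated mRNA, had 8603 counts in WT_K118R and 6532 in S_PXT1_K118R, a fold of 1.01 (0.975 to 1.04). EIF4G2, a translation initiation factor, had 7209 and 6387 counts, a fold of 1.18 (1.14 to 1.22). PABPC1, the main cytoplasmic poly(A)-binding protein, had 9339 and 5818 counts, a fold of 0.826 (0.800 to 0.854). At the lower edge of the filter, RAB7A, GLG1 and PARP1, each with a mean of 20 counts, had log2 ratios of -3.72, -1.97 and -1.11. Just outside it, at a mean of 19.8 counts, KIAA0100, ARHGEF1 and RPS15 had log2 ratios of -1.16, -0.31 and 0.58.

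**Figure D1:**
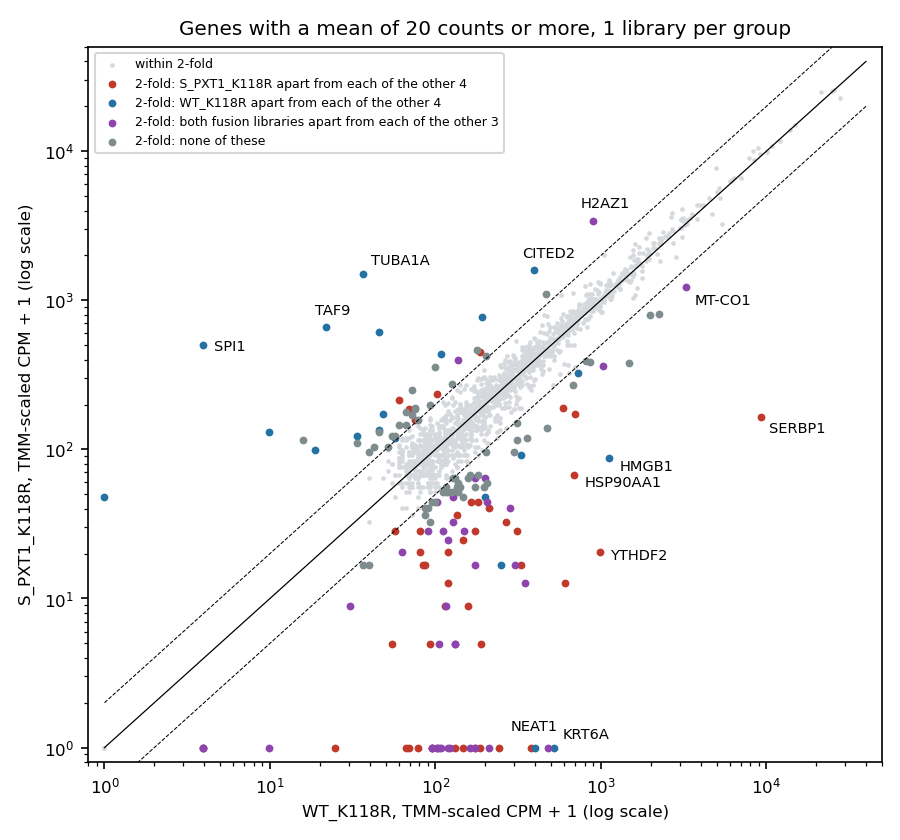
Expression in S_PXT1_K118R (vertical axis) against WT_K118R (horizontal axis), both as TMM-scaled CPM + 1 on log scales, for the 1547 genes with a mean of 20 counts or more; each point is 1 gene, the solid line is equality and the dashed lines mark 2-fold. Grey genes lie within 2-fold, and colours mark the 164 called genes by which of the 5 libraries stand apart, with SERBP1 and YTHDF2 far below the line and SPI1, TUBA1A and TAF9 far above it.

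A 2-fold difference between the K118R libraries can come from either of them, so the 164 called genes were sorted by which library stood apart. A library was said to stand apart where it was at least 2-fold beyond each of the others in the same direction. This sorting was chosen after the values were seen, and a gene that met 2 of the definitions was placed under the first of them in the order given here. S_PXT1_K118R stood apart from each of the other 4 libraries for 45 genes, 5 of them higher and 40 lower. WT_K118R stood apart from the other 4 for 21 genes, which made 14 higher and 7 lower in S_PXT1_K118R over WT_K118R. S_PXT1 and S_PXT1_K118R together stood apart from the other 3 for 38 of the genes left, 2 higher and 36 lower. Without that order, 22 genes met the definition for WT_K118R and 50, 2 higher and 48 lower, that for both fusion libraries, SERBP1 among the latter. The remaining 60 genes, 22 higher and 38 lower, followed none of these. With 5 counts or more in both K118R libraries the 4 numbers were 22, 15, 16 and 58.

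Where S_PXT1_K118R stood apart it was mostly low, and SERBP1, YTHDF2, HSP90AA1, HIF1A, BCL2L1 and DYRK1A were among the genes with the most counts. SERBP1 (ENSG00000142864, chromosome 1, 67407810 to 67430415, in the table's coordinates, whose build was not given in the sources used here) encodes a protein that binds mRNA and idle ribosomes. It had 3131 counts with WT_K118R and 42 with S_PXT1_K118R, next to 2271 with PMSCV, 2866 with WT and 248 with S_PXT1. With K118R it was 56.2-fold lower (41.5 to 78.1). Both fusion libraries were thus below the other 3, and S_PXT1_K118R was below S_PXT1. SERBP1 has pseudogenes in the table, and summed with 4 of them its log2 ratio was -2.77. Those 4 alone had 356 counts with PMSCV, 460 with WT, 442 with WT_K118R, 412 with S_PXT1 and 352 with S_PXT1_K118R. They thus did not follow the fall of SERBP1 itself. Whether reads were split between the gene and these copies was not tested.

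YTHDF2 (chromosome 1, 28736621 to 28769775), a reader of N6-methyladenosine that promotes the decay of marked mRNAs, had 332 counts in WT_K118R and 5 in S_PXT1_K118R, 50.1-fold lower (21.2 to 155). It had 137, 218 and 165 counts in PMSCV, WT and S_PXT1, so S_PXT1_K118R was the only low library. With its pseudogene the log2 ratio was -3.37. The pseudogene alone had 8, 16, 14 and 14 counts in PMSCV, WT, WT_K118R and S_PXT1. In S_PXT1_K118R it had 20, most of the 25 summed counts there, so it was not low in that library. Whether reads were split between YTHDF2 and this copy was not tested. The other 7 methyladenosine factors that entered, which include YTHDC1, YTHDF3, WTAP and METTL14, lay within 2-fold. YTHDF3, its close relative, had 222 and 204 counts, a fold of 1.22 (1.0 to 1.48).

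HSP90AA1, the inducible cytosolic HSP90 chaperone, had 162 counts with PMSCV, 169 with WT, 231 with WT_K118R, 103 with S_PXT1 and 17 with S_PXT1_K118R. It was 10.2-fold lower with K118R (6.26 to 17.9). HIF1A, the oxygen-regulated transcription factor, had 61, 90, 105 and 73 counts in PMSCV, WT, WT_K118R and S_PXT1 and 7 in S_PXT1_K118R, 11.3-fold lower (5.30 to 28.8). BCL2L1 (chromosome 20, 31664452 to 31723989), the gene of BCL-XL, which keeps mitochondria from releasing death signals, had 73 to 100 counts in the other 4 libraries and 8 in S_PXT1_K118R. That was 8.48-fold below the 90 counts of WT_K118R (4.12 to 20.2), whereas BCL2 itself had 61 counts in WT_K118R and 56 in S_PXT1_K118R, a fold of 1.22 (0.832 to 1.78). DYRK1A, a dual-specificity kinase, had 177 to 249 counts in the other 4 libraries against 44, 4.03-fold below WT_K118R (2.91 to 5.69).

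Several genes had no count with S_PXT1_K118R although S_PXT1 held them. SLC7A6, an amino acid transporter, had 58 counts with WT_K118R, 43 with S_PXT1 and 0 with S_PXT1_K118R, at least 14.6-fold lower. SRRT, which links cap-bound transcripts to RNA processing, had 44, 37 and 0 counts, at least 11.1-fold lower. VRK1, a chromatin kinase of dividing cells, had 62, 33 and 0 counts, at least 15.6-fold lower, and 1 count in PMSCV. TXNDC5, CMAS, CUL4B and UBN1 were likewise at 0 in S_PXT1_K118R alone, with 22 to 34 counts in WT_K118R and 23 to 31 in S_PXT1. For TXNDC5 the overlapping models, BLOC1S5-TXNDC5 among them, were not at 0, and summed with them it had 53 counts in WT_K118R and 11 in S_PXT1_K118R, a log2 ratio of -1.84 in place of -6.67. NFKBIA, which holds NF-kB in the cytoplasm, had 80 counts with PMSCV, 3 with WT, 49 with WT_K118R, 104 with S_PXT1 and 0 with S_PXT1_K118R, at least 12.3-fold lower. WT was itself at the floor for NFKBIA, so a value near 0 occurred in a non-fusion library too.

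Of the genes of eIF3, a translation initiation complex picked out after the values were seen, EIF3A, EIF3H and EIF3L were called lower. EIF3A, EIF3H and EIF3L had 40, 29 and 28 counts in WT_K118R and 3, 4 and 4 in S_PXT1_K118R, and 10 to 13 in S_PXT1. Their folds were 10.1 (3.20 to 50.8), 5.47 (1.92 to 21.4) and 5.28 (1.85 to 20.7) lower. With its pseudogenes EIF3L had 30 and 7 counts, a log2 ratio of -1.66 in place of -2.33. The other eIF3 genes that entered, EIF3C, EIF3E, EIF3J and EIF3M, lay within 2-fold.

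Higher genes in which S_PXT1_K118R stood apart numbered 5. MYCN, a MYC family transcription factor, had 16, 24, 20 and 26 counts in PMSCV, WT, WT_K118R and S_PXT1 and 54 in S_PXT1_K118R, 3.58-fold above WT_K118R (2.11 to 6.32). MED1, the mediator subunit that meets nuclear receptors, had 39 to 62 counts in the other 4 libraries and 115 in S_PXT1_K118R, 2.46-fold above WT_K118R (1.79 to 3.41). RAB2A, a GTPase of the secretory route, was 2.71-fold higher (1.61 to 4.68). SPTBN1, a spectrin of the membrane skeleton, was 2.34-fold higher (1.51 to 3.68), and BSG, a membrane glycoprotein and transporter chaperone, 2.12-fold higher (1.26 to 3.65). These 5 genes all had 5 counts or more in every library.

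Where WT_K118R stood apart, 14 genes counted as higher with the fusion because WT_K118R was low. For most of them S_PXT1_K118R lay near the rest, but not for all, BCL7C below among the exceptions. SPI1 (chromosome 11, 47354860 to 47378576) encodes PU.1, a transcription factor of myeloid and B cells. It had 113 counts with PMSCV, 173 with WT, 1 with WT_K118R, 139 with S_PXT1 and 128 with S_PXT1_K118R, a ratio of 170 (29.9 to 6758). TAF9 (chromosome 5, 69364743 to 69370013), a subunit of the TFIID and SAGA complexes, had 169, 216, 7, 180 and 168 counts in the same order, 31.8-fold higher (15.1 to 80.4). MAP3K7, the kinase TAK1, had 3 counts in WT_K118R and 31 to 44 elsewhere, a ratio of 14.6 (4.58 to 74.4). For these genes the 2 fusion libraries did not stand apart from PMSCV and WT.

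TUBA1A (chromosome 12, 49184796 to 49189324), an alpha-tubulin, had 437 counts with PMSCV, 640 with WT, 12 with WT_K118R, 578 with S_PXT1 and 383 with S_PXT1_K118R, 42.3-fold higher (24.0 to 82.7). Its near-identical relatives differed little. TUBA1C, whose model overlaps that of TUBA1A on the opposite strand, had 5043 counts in WT_K118R and 3808 in S_PXT1_K118R, a fold of 1.0 (0.960 to 1.04). TUBA1B had 1089 and 817, a fold of 0.995 (0.908 to 1.09). Whether counting used strand was not given in the sources used here, so reads of the overlapping pair, or of such close copies, may have been split between models, and TUBA1A is uncertain.

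CITED2 (chromosome 6, 139371807 to 139374620), a coregulator that binds CBP and p300, had 450 counts with PMSCV, 602 with WT, 133 with WT_K118R, 1291 with S_PXT1 and 403 with S_PXT1_K118R. It was 4.02-fold higher with K118R (3.30 to 4.93). The level with S_PXT1_K118R, 1584 CPM, lay beside the 1600 CPM of PMSCV, and WT_K118R, at 394 CPM, was the low library. KDM2A, a histone H3 lysine demethylase, had 64 counts in WT_K118R and 167 to 237 elsewhere, 4.08-fold higher (3.07 to 5.50). SRSF7, an SR splicing factor, had 36 counts in WT_K118R and 102 to 135 elsewhere, 4.09-fold higher (2.79 to 6.13). BCL7C, a subunit of SWI/SNF chromatin remodellers, had 0 counts in WT_K118R and 12 in S_PXT1_K118R, at least 5.31-fold higher. PMSCV, WT and S_PXT1 had 36, 42 and 27 counts of BCL7C, so S_PXT1_K118R was below them as well.

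The opposite also occurred, with WT_K118R as the only high library. HMGB1, an abundant chromatin protein, had 71 counts with PMSCV, 28 with WT, 376 with WT_K118R, 21 with S_PXT1 and 22 with S_PXT1_K118R, 12.9-fold lower in the fusion library (8.38 to 20.8). Summed with its pseudogenes HMGB1 had a log2 ratio of -1.14. The pseudogenes alone had 175, 222, 209, 176 and 178 counts in the same order, without the rise of HMGB1 in WT_K118R. A split of reads between HMGB1 and these copies was not tested. NFE2L1, a transcription factor of proteasome genes, had 111 counts in WT_K118R and 16 to 40 elsewhere, 3.64-fold lower (2.31 to 5.98). NDRG1, a stress-responsive gene, had 84 counts with WT_K118R, 0 with S_PXT1 and 4 with S_PXT1_K118R, 15.8-fold lower (5.96 to 59.5). UBE2G1, a ubiquitin-conjugating enzyme, had 67 counts in WT_K118R and 10 to 27 elsewhere, 4.21-fold lower (2.26 to 8.55).

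**Figure D2:**
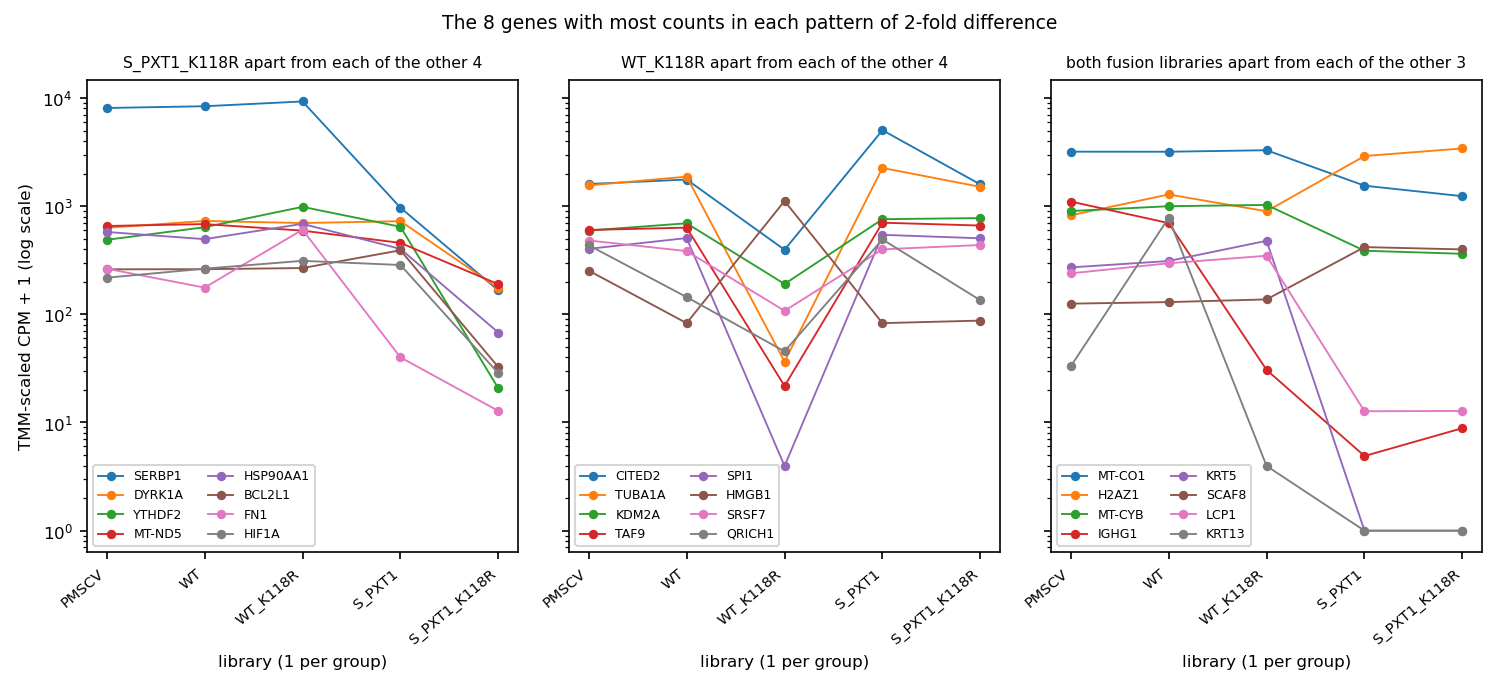
TMM-scaled CPM + 1 (log scale) in each of the 5 libraries for the 8 genes with the most counts in each pattern; each point is 1 library and lines join the values of 1 gene without meaning an order. On the left S_PXT1_K118R is the lowest library, as for BCL2L1 with 8 counts, in the middle WT_K118R stands apart, as for SPI1 with 1 count, and on the right S_PXT1 and S_PXT1_K118R lie on one side of the other 3.

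The 38 genes placed under both fusion libraries were nearly all lower, and tissue and mitochondrial genes were among them. The 2 higher genes were H2AZ1 and SCAF8. H2AZ1 (chromosome 4, 99948086 to 99950388), the histone variant H2A.Z, had 231 counts with PMSCV, 438 with WT, 302 with WT_K118R, 745 with S_PXT1 and 868 with S_PXT1_K118R. It was 3.81-fold higher with K118R (3.34 to 4.36) and 2.27-fold higher without it (2.01 to 2.56). SCAF8, which binds the tail of RNA polymerase II and guards against early transcript ends, had 35, 44, 46, 107 and 101 counts in the same order. That was 2.91-fold higher with K118R (2.04 to 4.22) and 3.24-fold without it.

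Of the 36 lower genes, 11 were at 0 counts in both fusion libraries while WT_K118R held 32 counts or more. They include KRT5, KRT17 and DSP of squamous epithelium, KLK3 and STEAP2 of prostate, and CD74, a chaperone of MHC class II. KRT5 had 76, 106 and 161 counts in PMSCV, WT and WT_K118R. It was at least 40.5-fold lower with S_PXT1_K118R, and KLK3 at least 17.8-fold, with lower ends of the exact intervals at 32.5 and 14.1. AP1G2, SENP6, PRUNE2, SERINC5 and MAOA, which were in none of the tissue lists, showed the same absence. LCP1, an actin-bundling protein of blood cells, had 117 counts in WT_K118R and 3 in each fusion library, a ratio of 29.4 (9.82 to 145). B2M, the light chain of MHC class I, had 61, 62, 95, 16 and 10 counts, 7.16-fold lower with K118R (3.73 to 15.4). HSP90B1, the HSP90 of the endoplasmic reticulum, was 4.73-fold lower (2.49 to 9.91).

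For 4 further tissue genes the call rests on almost nothing in the K118R pair. MYH11, KRT13 and SPRR3 had 1 count in WT_K118R and 0 in S_PXT1_K118R, and IGHG2 had 3 and 0, so no fold is given. In WT they had 215, 266, 125 and 64 counts. The genes of other tissues thus differed among the non-fusion libraries too.

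Among the 60 called genes of no such pattern, RHOA and TRA2B had values in S_PXT1 that were close to those in S_PXT1_K118R and values in WT that were close to those in WT_K118R, with PMSCV on the fusion side. RHOA, the GTPase of stress fibres, had 273 counts with PMSCV, 164 with WT, 157 with WT_K118R, 305 with S_PXT1 and 278 with S_PXT1_K118R, 2.35-fold higher (1.92 to 2.87). TRA2B, a splicing regulator, had 119, 580, 498, 100 and 97 counts in the same order, 3.87-fold lower (3.11 to 4.86). CPSF6, a subunit of the complex that chooses poly(A) sites, had 159 counts in WT_K118R and 35 in S_PXT1_K118R, 3.42-fold lower (2.36 to 5.09). PMSCV was as low for CPSF6, at 33 counts, while WT and S_PXT1 had 164 and 140.

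CBX1, which encodes the heterochromatin protein HP1 beta, had 57 counts with PMSCV, 84 with WT, 228 with WT_K118R, 181 with S_PXT1 and 68 with S_PXT1_K118R, 2.53-fold lower with K118R (1.92 to 3.36). SERP1, a protein of the endoplasmic reticulum membrane, was 3.02-fold lower (2.01 to 4.66). BTK, the B cell kinase, had 11 counts in WT_K118R and 28 in S_PXT1_K118R, 3.38-fold higher (1.63 to 7.52), with 10 in PMSCV and 29 and 28 in WT and S_PXT1. AP2A1, a subunit of the clathrin adaptor AP-2, had 5 counts in WT_K118R and 29 in S_PXT1_K118R, 7.69-fold higher (2.94 to 25.5), and 4 in PMSCV. In both BTK and AP2A1 it was PMSCV and WT_K118R that were low.

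Mitochondrially encoded protein genes were lower as a list. Of the 11 that entered, 8 were at least 2-fold lower and 0 higher, where 7.82% of all genes compared were lower, and the median log2 ratio was -1.15 against 0.04 over all genes. The 8 include MT-ATP6 and MT-ATP8, which lay within 2-fold when their overlapping models were summed with MT-CO3, at a log2 ratio of -0.62. The 13 genes summed to 3513 counts in WT_K118R and 1192 in S_PXT1_K118R, a fold of 0.450 (0.421 to 0.481), and without K118R the fold was 0.456 (0.427 to 0.486). Part of the fold without K118R rests on MT-ND4, which had 625 counts in WT and 2 in S_PXT1, so the closeness of the folds is not read as a result. MT-CO1, a core subunit of cytochrome c oxidase, had 896 counts with PMSCV, 1088 with WT, 1109 with WT_K118R, 396 with S_PXT1 and 314 with S_PXT1_K118R, 2.66-fold lower (2.35 to 3.03). MT-CYB, of complex III, had 346 and 92 counts in the K118R pair, 2.84-fold lower (2.25 to 3.61). MT-ND5, of complex I, had 200 and 48, 3.14-fold lower (2.28 to 4.40). MT-CO3 and MT-ND1, at log2 ratios of -0.33 and -0.31, lay within 2-fold. The large ribosomal RNA of mitochondria, MT-RNR2, had 761 and 207 counts, 2.77-fold lower (2.37 to 3.25), against 405 in S_PXT1. The low number of genes detected marks the same 2 libraries. Genes of the respiratory chain encoded in the nucleus summed to 1901 and 1274 counts, a fold of 0.889 (0.827 to 0.955). Of their 5 members that entered, NDUFB9 of complex I was higher, with 15 and 33 counts, and 0 were lower.

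MT-ND4 needs a caution of its own. It had 3 counts with PMSCV, 625 with WT, 665 with WT_K118R, 2 with S_PXT1 and 203 with S_PXT1_K118R, 2.47-fold lower with K118R (2.11 to 2.90). MT-ND4L, whose model overlaps it, had 103, 1, 0, 63 and 0 counts in the same order. The counts of both together were 106, 626, 665, 65 and 203, with a log2 ratio of -1.30.

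Lists of blood transcription factors and of general transcription factors were higher in sum, through few members. WT_K118R was the lowest library for both sums. In the order PMSCV, WT, WT_K118R, S_PXT1 and S_PXT1_K118R the blood factors had 5615, 6302, 4297, 10904 and 6082 CPM. The general transcription factors had 2667, 2831, 2211, 2807 and 2830 CPM. In these and the following lists the counts of called members stand against 2.78% higher and 7.82% lower over all genes compared. The blood factors summed to 1450 counts in WT_K118R and 1547 in S_PXT1_K118R, a fold of 1.42 (1.32 to 1.52), and of 17 that entered CITED2 and SPI1 were higher and 0 lower. ETV6, MAX, ZEB2, TCF12 and IKZF1 were within 2-fold, and the median log2 ratio was 0.17. The TBP, TAF and mediator genes summed to 746 and 720 counts, a fold of 1.28 (1.15 to 1.42), with TAF9 and MED1 higher among 10 and a median log2 ratio of -0.02, of the other sign. SWI/SNF subunits summed to 1418 and 1234 counts, a fold of 1.15 (1.07 to 1.25), with BCL7C alone called among 14. ARID1A, the DNA-binding subunit, had 193 counts in WT_K118R, 275 in S_PXT1_K118R and 362 in WT, a fold of 1.89 (1.57 to 2.28).

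Chaperones were lower in sum. The cytosolic chaperones had 2151 counts in WT_K118R and 1257 in S_PXT1_K118R, a fold of 0.775 (0.722 to 0.831), against 0.938 (0.876 to 1.0) without K118R. HSP90AA1 and HSPH1 were called lower among the 14 that entered, a count near the 7.82% over all genes. HSPA8, the constitutive HSP70, had 174 and 68 counts, a fold of 0.518 (0.386 to 0.690), just inside 2-fold. Chaperones and translocon genes of the endoplasmic reticulum had 1307 and 758 counts, a fold of 0.769 (0.703 to 0.842), with TXNDC5 and HSP90B1 lower among 17, again near it. The BCL2 family summed to 496 and 239 counts, a fold of 0.639 (0.545 to 0.747), with BCL2L1 the 1 member called among 4, too few to set against that share. The median log2 ratio of those 4 was -0.13, nearer equality than the sum. Over the whole BCL2 list, 26 members had a count in WT_K118R and 13 in S_PXT1_K118R.

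Genes of translation and RNA processing were near equality as lists. Ribosomal protein genes summed to 6632 counts in WT_K118R and 5253 in S_PXT1_K118R, a fold of 1.05 (1.01 to 1.09). RPS2 was higher and RPS24 and RPL27A lower among 38. With their pseudogenes RPS2 and RPL27A lay within 2-fold, at log2 ratios of 0.72 and -0.94. Over the list the median log2 ratio was -0.17, of the other sign than the sum. RPLP0, the stalk protein, held many of these counts, 3022 and 2675. Translation factors had a summed fold of 1.08 (1.06 to 1.11), with EIF3A, EIF3H, EIF3L and EIF4B lower among 25. The 40 genes of mRNA stability and poly(A) binding that entered had a median log2 ratio of 0.13, while the list summed to a fold of 0.896 (0.881 to 0.912), and SERBP1 was the 1 called. Deadenylase and decay genes such as CNOT1, XRN1, XRN2 and UPF2 lay within 2-fold. SR and TRA2 splicing factors had SCAF8 and SRSF7 higher and TRA2B lower among 19. Among 39 hnRNP and RBM genes, 1 was called, RBM4. DEAD and DEAH box helicases had 1 lower among 11, DDX42, with 53 counts in WT_K118R and 2 in S_PXT1_K118R.

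In the signalling lists the counts of called genes are too small to be read against the 10.6% over all genes. The genes of the interleukin-3 receptor and JAK-STAT route summed to 592 counts in WT_K118R and 367 in S_PXT1_K118R, a fold of 0.822 (0.720 to 0.938). Of the 5 that entered 0 were called, and STAT5B, which carries the interleukin-3 signal, had 52 and 39 counts and a log2 ratio of -0.01. Genes of the NDR and LATS kinase pathway summed to 361 and 222 counts, a fold of 0.816 (0.687 to 0.967), with TAOK1, TAOK3 and MOB4 entering and 0 called. In both lists the members that entered had a median log2 ratio above 0, at 0.14 and 0.34, of the other sign than the sum. The 4 immediate-early and ERK feedback genes that entered, the 11 proteasome genes, the 9 glycolysis genes and the 6 replication genes likewise had 0 called. Among the proteasome genes PSME3, an activator cap, had 1025 and 781 counts in the K118R pair, a fold of 1.01 (0.920 to 1.11), and 194 in PMSCV.

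Interferon and antigen presentation genes were lower in sum with S_PXT1_K118R. Of the 42 interferon-stimulated genes 0 entered, and together they had 199 counts in WT_K118R and 21 in S_PXT1_K118R, a fold of 0.140 (0.0848 to 0.220). Without K118R the fold was 0.584 (0.390 to 0.860). Antigen presentation genes had 387 and 34 counts, a fold of 0.117 (0.0795 to 0.166), and 0.209 (0.142 to 0.300) without K118R. WT_K118R was the highest library for both lists. The interferon genes had 590 CPM there, against 477 in PMSCV and 260 in WT. Antigen presentation genes had 1147 CPM there, against 597 and 652. Keratins had 617 counts and 1 count, and collagens 750 and 218, in the same pair of libraries that differed in tissue genes and in genes detected. The part of those differences in the interferon and antigen lists was not tested.

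**Figure D3:**
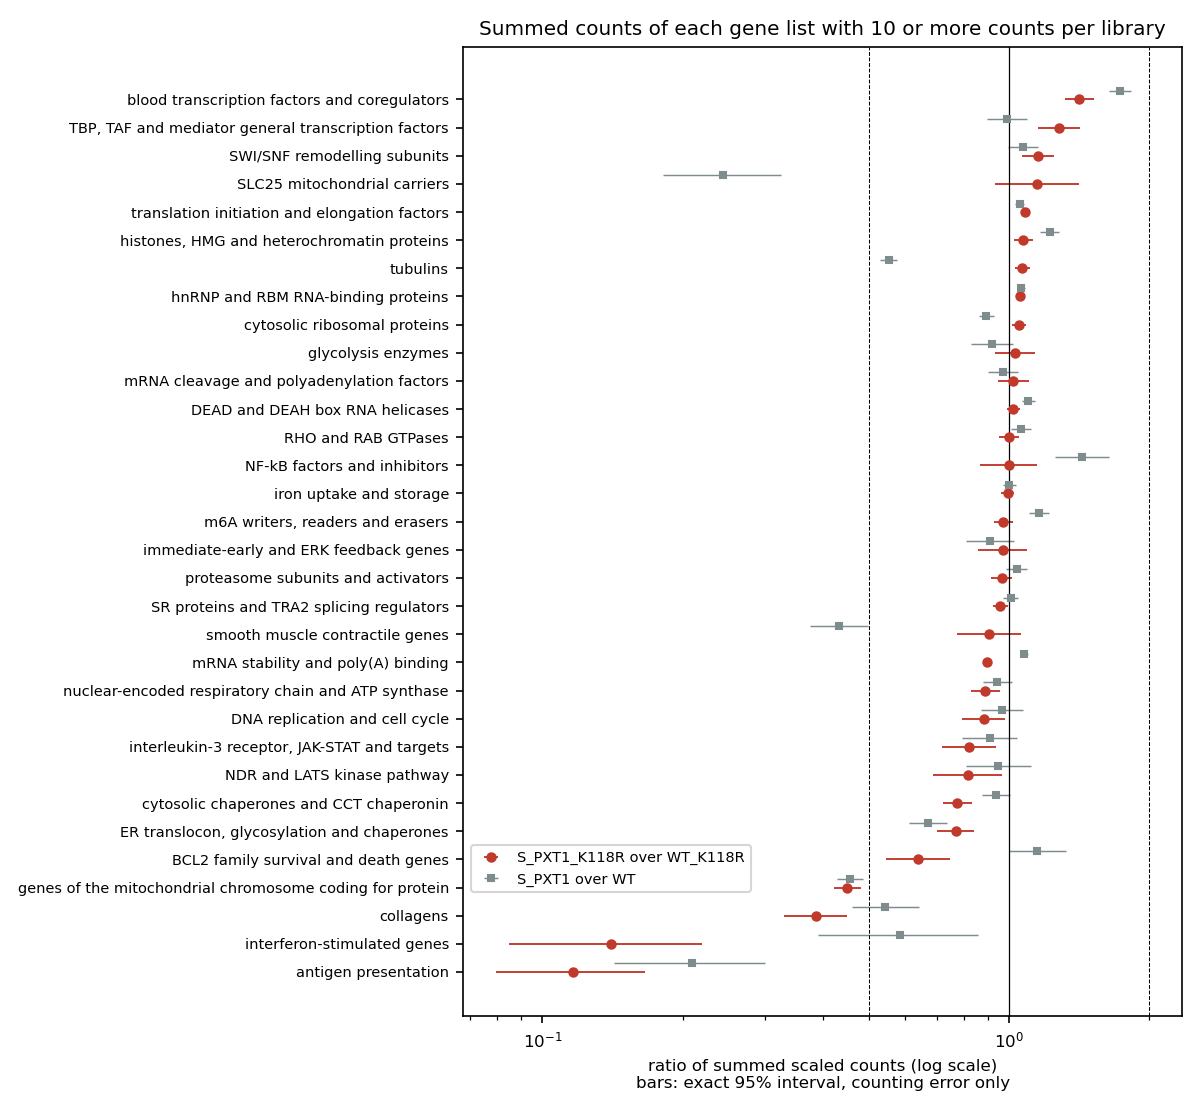
Ratio of summed scaled counts (log scale) for each gene list with 10 counts or more in each of the 4 libraries compared; circles show S_PXT1_K118R over WT_K118R, squares show S_PXT1 over WT, and bars are exact 95% intervals of counting error. Mitochondrially encoded genes lie at 0.450 and 0.456, blood transcription factors at 1.42 and 1.73, and tubulins at 1.07 and 0.553.

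The same pair of constructs without K118R, S_PXT1 over WT, shares no library with the pair described here. It had 47 genes at least 2-fold higher (3.04% of the same 1547) and 109 lower (7.05%), together 10.1%. Among the 1492 genes with 5 counts or more in both K118R libraries it had 44 higher (2.95%) and 72 lower (4.83%), together 7.77%. Of the lower genes, 56 were called in both pairs, 46.3% of those with K118R and 51.4% of those without. Of the higher genes, 8 were, 18.6% and 17.0%. In that narrower set 20 lower genes were shared, 28.2% and 27.8%, and 8 higher genes, 20% and 18.2%. Across genes the log2 ratios of the 2 pairs had a Pearson correlation of 0.52 and a Spearman correlation of 0.26, and 0.18 and 0.21 in the narrower set. Genes are not independent replicates, and the 2 fusion libraries also share their low number of genes.

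Genes that differed 2-fold in both pairs and were well counted include H2AZ1, SCAF8, RHOA and CITED2, all higher, and SERBP1, TRA2B, MT-CO1 and MT-CYB, all lower. SERBP1 was 8.67-fold lower without K118R. For CITED2 the 2 pairs were alike in fold and unlike in level. S_PXT1 was 2.86-fold above WT (2.59 to 3.15) and S_PXT1 was the highest library, whereas S_PXT1_K118R was 4.02-fold above WT_K118R and WT_K118R was the lowest.

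By the 2-fold rule LDB1 and GATA2 were called without K118R and not with it, and the difference between the pairs was not tested. LDB1, a cofactor of GATA complexes, had 101 counts in WT_K118R and 78 in S_PXT1_K118R, a fold of 1.02 (0.752 to 1.39), whereas S_PXT1 had 239 against 83 in WT, a fold of 3.84 (2.98 to 4.99). GATA2, a transcription factor of blood progenitors, had 123 and 84 counts with K118R, a fold of 0.906 (0.678 to 1.21), and 202 against 128 without it, a fold of 2.10 (1.68 to 2.65). For both genes S_PXT1 was the 1 high library. RPN2, of the oligosaccharyltransferase, had 161 and 110 counts with K118R, a fold of 0.906 (0.705 to 1.16), and 6 counts in S_PXT1 against 191 in WT. TUBA1C was at 1.0 with K118R and at 0.337 (0.317 to 0.357) without it, with S_PXT1 the low library.

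**Figure D4:**
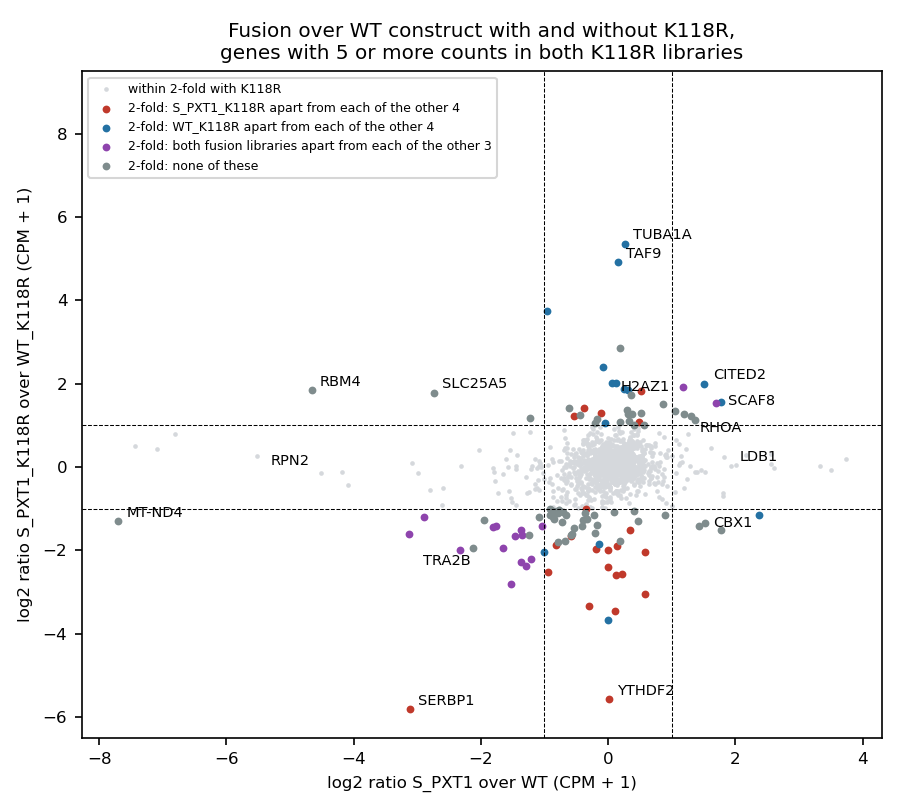
Log2 ratio of S_PXT1_K118R over WT_K118R (vertical axis) against that of S_PXT1 over WT (horizontal axis), both on CPM + 1, for the 1492 genes with 5 counts or more in both K118R libraries; dashed lines mark 2-fold and colours are those of the patterns of libraries. H2AZ1, RHOA and SCAF8 lie at the upper right and SERBP1 and TRA2B at the lower left, while YTHDF2, TAF9 and TUBA1A lie near 0 on the horizontal axis and LDB1 near 0 on the vertical axis.

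Some calls belong to gene models that share sequence, and summing the models changed them. MATR3, a nuclear matrix protein, is listed under 2 identifiers. One, ENSG00000015479, had 15 counts in WT_K118R and 155 in S_PXT1_K118R, 13.7-fold higher, and the other, ENSG00000280987, had 244 and 82, 2.24-fold lower. Summed they had 259 and 237 counts and a log2 ratio of 0.28, within 2-fold. RBM4 had 33 and 90 counts and a log2 ratio of 1.84, and with the overlapping models RBM14 and RBM14-RBM4 the ratio was -0.17. MT-ATP6 had 35 counts in WT_K118R and 1 in S_PXT1_K118R, MT-ATP8 had 105 and 38, and the 2 with MT-CO3 had 419 and 206. EIF4B was 2.73-fold lower on its own and had a log2 ratio of -0.23 with its pseudogenes. TAF9 kept its difference when summed with the overlapping AK6, at a log2 ratio of 4.18.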

How the data were processed

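RNA sequencing of 5 Ba/F3 libraries was analysed, 1 per group, grouped by the sample titles. Total RNA was extracted with Trizol, per the labels' protocols. The authors deposited 1 table of raw read counts and FPKM values per human gene model, per the file headers. Tools credited to the submitters' processing notes are HISAT2 2.2.1, FastQC and cutadapt 1.9. The counting tool, strand setting, annotation and genome build were not given in the sources used here.

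TMM factors over the 5 libraries came from edgeR 4.0.16 under R 4.3.3. Genes with a mean of 20 counts or more entered. Log2 ratios used CPM with a pseudocount of 1 CPM, and genes were called at 2-fold. No model was fitted, since no group has a replicate. Intervals are Clopper-Pearson at 95%. A single count was 2.96 CPM in WT_K118R and 3.93 CPM in S_PXT1_K118R, and the floor of 3 counts was 8.89 and 11.8 CPM. The calculation was tested on simulated data.

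Members, gene lists (34) and marker lists (10) were chosen with earlier results of these data known. Genes were named by rule: the 12 highest and 12 lowest ratios with 5 counts or more in both libraries, the 10 with most counts elsewhere among genes under 5 counts, called genes with a mean of 100 or more, up to 4 members of each list by ratio and 2 by counts, and 7 genes known from earlier results. Other called genes were named after their values were seen. Alternatives were other thresholds, pseudocounts, filters and scalings (DESeq2 1.42.0 size factors, total count), the deposited FPKM values, and summed gene models. An item of the constructs is not reported here.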

Additional observations from a re-analysis of the deposited data

Results flagged for a closer look

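For 9 genes the fusion construct was at least 2-fold higher with K118R and at least 2-fold lower without it, or the reverse. The log2 ratios below are first those of S_PXT1_K118R over WT_K118R and then those of S_PXT1 over WT. Each rests on 1 library per group, and the difference between the pairs was not tested.

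RBM4 was at 1.84 and -4.66, with 1 count in S_PXT1, and its direction with K118R turned when overlapping models were summed. RBM14-RBM4, which overlaps it, was at -1.24 and 1.05. With the overlapping models summed, RBM4 and RBM14-RBM4 were at -0.17 and 0.06, within 2-fold in both pairs. SLC25A5, a carrier of ADP and ATP in mitochondria, was at 1.79 and -2.74. UBE4A, a ubiquitin chain factor, was at 1.18 and -1.22. MATR3 under the identifier ENSG00000280987 was at -1.16 and 2.37. Summed with the other MATR3 identifier it was at 0.28 and -0.59, again within 2-fold in both pairs.

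CBX1 was at -1.33 and 1.52, with its high values in WT_K118R and S_PXT1. ZCCHC2, a zinc finger gene, was at -1.43 and 1.43. ARCN1, a subunit of the COPI coat, was at -1.52 and 1.78. NFKBIA was at -7.19 and 5.38, with 0 counts in S_PXT1_K118R and 3 in WT.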

How the results depend on the processing

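No paired analysis was possible because each group has 1 library. The numbers of genes called higher and lower with S_PXT1_K118R moved with the threshold and the filter. At 1.5-fold they were 108 and 198, and 105 and 148 with 5 counts or more in both libraries. At 3-fold 18 were higher and 82 lower, and 15 and 34 in the narrower set. With no filter beyond 1 count they were 1426 and 6662, and 80 and 150. With a mean of 100 counts or more they were 9 and 16, and 8 and 15. Under the other settings (pseudocount, scaling, FPKM, summed models, interval, a filter on the pair, and the tissue genes left out) higher calls ran from 38 to 47 and lower calls from 101 to 132, and from 35 to 44 and 57 to 82 in the narrower set. The last of these, and summing with pseudogenes, were chosen after seeing the data. Genes called the same way with and without K118R numbered 49 to 63 against 64. DESeq2 size factors and total counts shifted the median log2 ratio by 0.06 and 0.07. RBM4 changed direction when overlapping models were summed, from 1.84 to -0.17. Depth limits the low genes: at these totals 1 count is 2.96 to 3.93 CPM, and a gene at 0 in S_PXT1_K118R may still be present at up to 11.8 CPM.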
